A study of Mus musculus with 6 samples.

Results

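Histones are the proteins around which DNA is wound, and the genes described here are all those that the array annotation names with a symbol starting with Hist1h, Hist2h, Hist3h, Hist4h, H1f, H2ac, H2af, H2ax, H2az, H2bc, H3c, H3f, H4c or Macroh2a. They were chosen by name and not by level, though with earlier results of these data known. They came to 54 of the 45037 probe sets tested (a probe set is a group of short probes for one transcript) and 63 genes. Because histone genes are so alike, 25 of the 54 probe sets were shared by several genes, and 21 of the 63 genes had a probe set annotated to them alone, out of 18193 such genes on the array. C2C12, an established mouse myoblast line that fuses into multinucleated myotubes when serum is reduced, was compared between differentiated cells, on day 6 in 2% horse serum, and proliferating cells in 20% serum. Each group had 3 arrays, and neither group carried a transgene or a further treatment. RNA came from pools of 3 culture plates, with 3 pools mixed per sample, and the arrays of a group therefore differ as such mixtures do and not as single cultures do. The differentiated cultures are mixed, since not every cell fuses, and in bulk RNA fewer cells of a type and less RNA per cell cannot be told apart.

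Canonical histones are made in S phase, when new DNA has to be packaged, from clustered genes without introns. Their mRNAs normally end in a conserved stem-loop that is bound by the stem-loop binding protein Slbp, and carry no poly(A) tail, although some cluster genes also give polyadenylated transcripts in cells that have stopped dividing. Replacement variants such as H2A.Z, H2A.X, macroH2A and H3.3 are made outside S phase as well, mostly from genes with ordinary polyadenylated mRNAs, and are put into chromatin by dedicated chaperones. The labels give the standard Affymetrix labelling, which primes on poly(A) tails, so signals for cluster genes bear on whichever of their transcripts could be primed. That share was not measured. The study used H2B protein as a reference on its immunoblots, and the arrays do not measure protein.

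Values are MAS 5.0 signals, a linear intensity scaled per array. Changes are log2 fold changes of signal + 15, differentiated minus proliferating, with the standard error (SE), and a probe set was called at an adjusted p under 0.05 in limma. Median signals were 72.3 to 81.4 on the differentiated arrays and 68 to 73 on the proliferating arrays. As a gauge of background, the brightest Bacillus subtilis control, a sequence that mouse cells lack, read 51.9 to 71.3 on the differentiated arrays and 55.7 to 87.0 on the proliferating arrays. The labels held against marker genes: all 5 myotube markers were called higher, with a summed signal of 46595 to 49580 in differentiated cells against 541 to 675 in proliferating cells, and all 5 proliferation markers were called lower, at 6202 to 6336 against 27051 to 28371. None of the markers of adipocytes, leukocytes or endothelial cells was called, which bears on a difference between the groups and not on absence. The leukocyte markers Cd68 (94 to 143.1) and Cd14 (238.1 to 297.3) were above the bacterial control on all 6 arrays. Of 3 neuronal markers Stmn2 was lower, but above that control on all 6 arrays. Snap25 and the endothelial Pecam1 stayed at or under the bacterial control on all 6 arrays.

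Of the 54 histone probe sets, 11 were called higher in differentiated cells, 8 were called lower and 35 were not called, against 6.14% of all probe sets called higher and 6.43% called lower. Among 30 probe sets of replication-dependent cluster genes, 10 were higher, 1 was lower and 19 were not called, with a median change of 0.37. Among 24 probe sets of variants, 1 was higher, 7 were lower and 16 were not called, with a median of -0.18, and over all probe sets the median was 0.05. The 7 lower variant calls came from 4 probe sets of H2az1, 1 of H2ax and 2 shared by the H3.3 genes, so they are not a fall of all variants, and the difference between the kinds was not tested. All the calls came from 33 probe sets that exceeded the bacterial control throughout a group. The other 21 had a median SE of 0.47 on the log2 scale, against 0.18 for the 33, so smaller changes of those were not detectable here. Counted by genes with a probe set of their own, 3 of 21 were higher (H1f2, H2ac19 and H2bc22) and 2 were lower (H2ax and H2az1), where 8.67% of all genes were called higher and 9.05% lower.

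**Figure D1:**
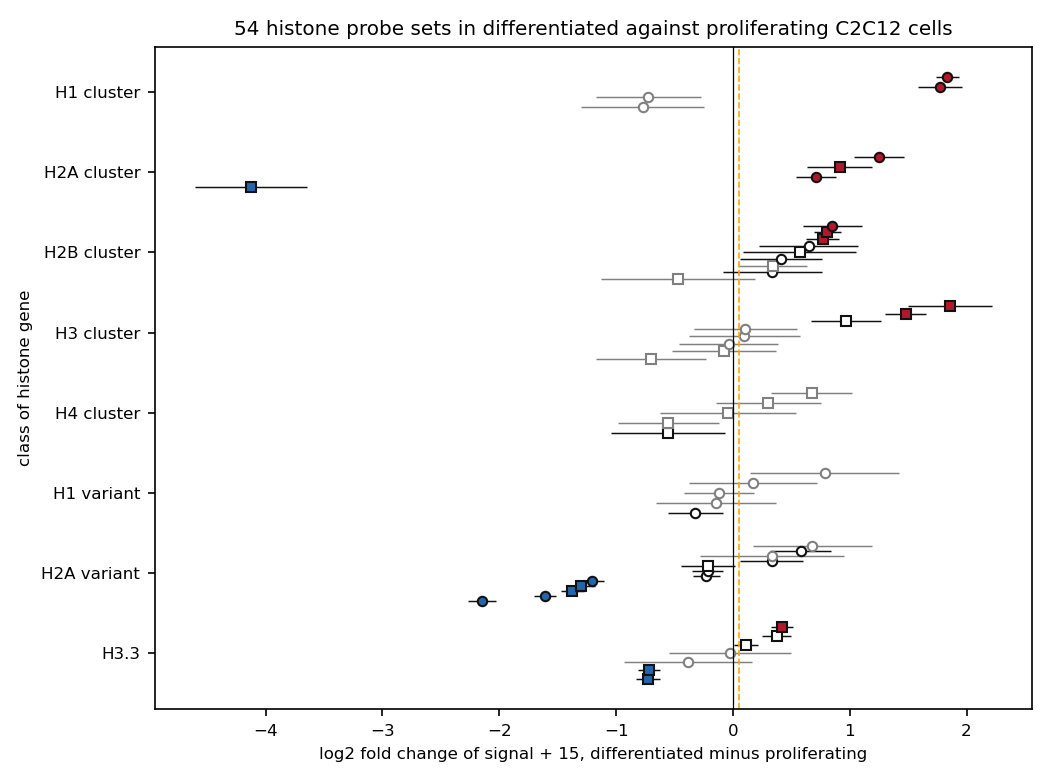
Change of each of the 54 histone probe sets (x axis, log2 fold change of signal + 15, differentiated minus proliferating, with bars of 1 SE), by class of histone gene (y axis). Filled symbols were called higher (red) or lower (blue), open symbols were not called, squares are probe sets shared by several genes, grey marks those not above the bacterial control on every array of a group, and the dashed line is the median of all probe sets. The called probe sets of the H1, H2B and H3 clusters lie to the right, those of the H2A variants to the left, and 1 shared H2A probe set stands alone at -4.13.

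The linker histone H1f2 had the clearest rise among the cluster genes. H1f2 encodes H1.2, which binds where DNA enters and leaves the nucleosome. Its brightest probe set read 3996.9, 3438.1 and 4058.9 in differentiated cells, against 1064.4, 1134.2 and 985.8 in proliferating cells. Every differentiated array was above every proliferating array, and the change was 1.84 (SE 0.10, adjusted p = 8.7e-08 in limma), or 3.57-fold. A second probe set of H1f2 read 1374.7, 1057.2 and 886.2 in differentiated cells, against 322.9, 388.3 and 232.1 in proliferating cells, again without overlap (1.77, SE 0.19, adjusted p = 3.4e-05). The third, at 38.4, 65.3 and 37.4 in differentiated cells against 50, 102.3 and 117.5 in proliferating cells, was not called. H1f4, the gene of a related linker histone, was at or under the bacterial control on all 6 arrays and had no measurable level. The 170 bases before the RefSeq start of H1f2 (chr13:23738637-23738806, GRCm38.p6, plus strand) are shown because this is the cluster gene with the firmest change. Capitals mark the H1 box AAACACA, an element named for linker histone promoters, and the CCAAT box, both searched on both strands.
H1f2: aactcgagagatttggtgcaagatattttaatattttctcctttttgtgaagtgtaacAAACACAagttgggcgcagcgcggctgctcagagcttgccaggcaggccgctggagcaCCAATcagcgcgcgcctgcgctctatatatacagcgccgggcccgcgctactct
The H1 box was found in the promoters of both H1 cluster genes and in 4.1% of the 32851 promoters of the same length, and a match describes the letters only.

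Histone H2A gave the largest fall and also rises. The fall was that of 1 probe set shared by 10 H2A genes of the chromosome 13 cluster (H2ac4, H2ac6, H2ac7, H2ac8, H2ac11, H2ac12, H2ac13, H2ac22, H2ac23 and H2ac24). It read 248.7, 148.7 and 1076.3 in differentiated cells, against 6704.5, 6017.1 and 6196.5 in proliferating cells. All proliferating arrays were far above all differentiated arrays, while the differentiated arrays disagreed among themselves, the third being well above the other two. The change was -4.13 (SE 0.48, adjusted p = 6.4e-05 in limma), and it was -4.93 without differentiated replicate 3 and -3.56 without differentiated replicate 2. Which of the 10 genes carried the signal cannot be told from this probe set.

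H2ac19, an H2A gene of the chromosome 3 cluster, went the other way. Its brightest probe set, of the _x_at kind whose probes can match related genes, read 445.9, 546.3 and 787.6 in differentiated cells, against 175.2, 262.8 and 276.6 in proliferating cells. The groups did not overlap (1.25, SE 0.22, adjusted p = 0.0016). The other probe set of H2ac19 read 384.0, 492.2 and 450.5 in differentiated cells, against 281.1, 213.9 and 301.1 in proliferating cells (0.71, SE 0.17, adjusted p = 0.013), and its adjusted p was 0.068 without differentiated replicate 2. The probe set shared by H2ac19 and H2ac18, the neighbouring H2A gene, read 158.3, 250 and 214.3 in differentiated cells, against 133.9, 76.3 and 100.4 in proliferating cells. That change of 0.92 (SE 0.28) only just passed, at an adjusted p of 0.049, and leaving out any single array except proliferating replicate 1 took it to between 0.053 and 0.21. The promoter of H2ac19 (chr3:96240375-96240544, GRCm38.p6, minus strand) is shown as that of an H2A gene that rose, with its CCAAT box, here on the opposite strand as ATTGG, in capitals.
H2ac19: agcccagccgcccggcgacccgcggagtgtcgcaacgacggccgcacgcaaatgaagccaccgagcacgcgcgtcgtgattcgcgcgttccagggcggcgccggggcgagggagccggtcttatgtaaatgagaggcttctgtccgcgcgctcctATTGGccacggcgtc
A CCAAT box was found before 12 of 12 H2A cluster genes, and in 26.6% of all promoters.

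**Figure D2:**
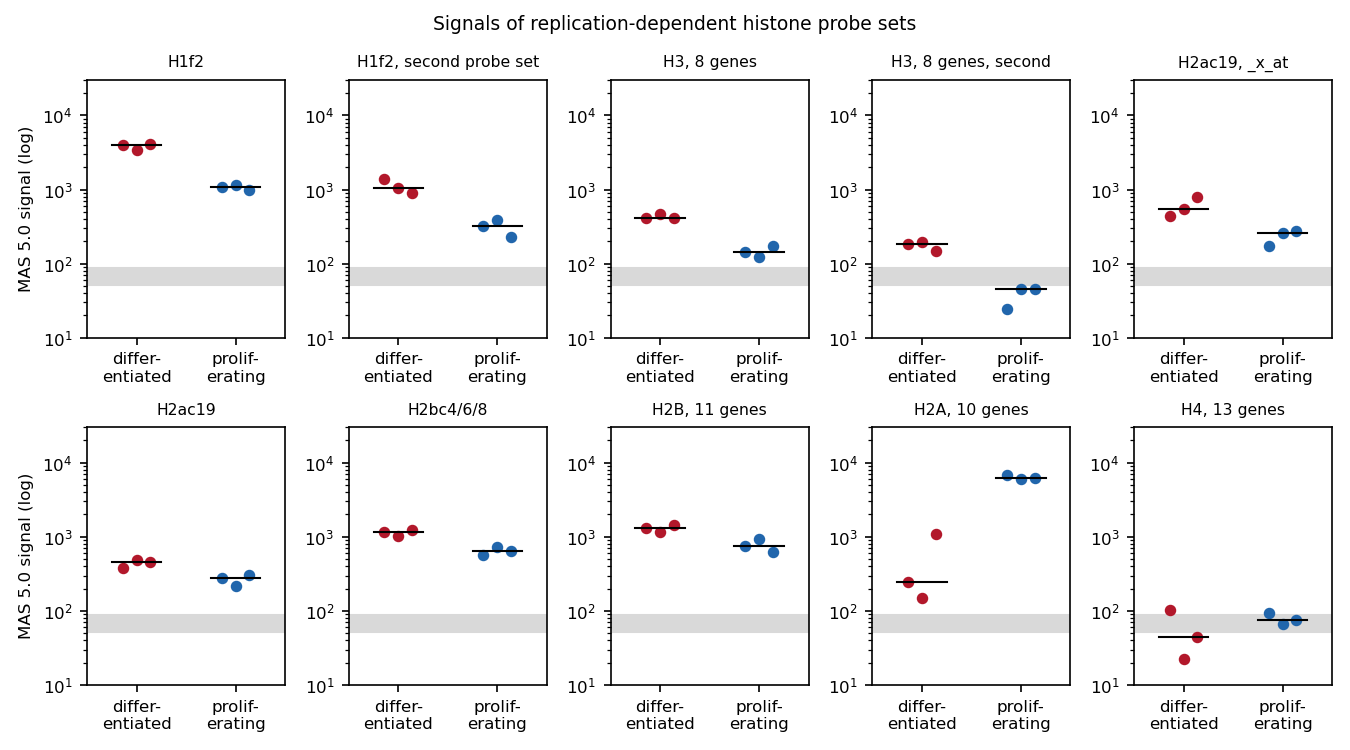
MAS 5.0 signal (y axis, log scale) of 10 probe sets of replication-dependent histone genes in differentiated (red) and proliferating (blue) cells, with 1 point per array, 3 arrays per group, and a line at the group median. The grey band runs over the highest Bacillus subtilis readings, 51.9 to 87.0. The H1f2, H3, H2ac19 and H2B probe sets shown were higher in differentiated cells, the H2A probe set of 10 genes was lower, and the H4 probe set lay in or near the control band.

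H2B, the partner of H2A in the nucleosome, was called higher on 3 of 9 probe sets and lower on none. Of all probe sets, 6.14% were called higher and 6.43% lower. The probe set shared by H2bc4, H2bc6 and H2bc8, whose representative sequence is the RefSeq transcript of H2bc4, read 1150.3, 1022.5 and 1229.2 in differentiated cells, against 574.9, 716.4 and 634.1 in proliferating cells. The groups were well apart, at 1134 ± 104 and 642 ± 71.1 (SD, n = 3 each), and the change was 0.81 (SE 0.12, adjusted p = 0.00041 in limma), or 1.75-fold. A probe set listed for 11 genes (H2bc4, H2bc6, H2bc7, H2bc8, H2bc11, H2bc13, H2bc14, H2bc15, H2bc22, H2bc23 and one given as H4bc24) read 1305.1, 1162.7 and 1455.1 in differentiated cells, against 751.6, 928.8 and 625.2 in proliferating cells (0.77, SE 0.14, adjusted p = 0.0025). Both sets name the same 3 genes among theirs, so they are not independent measures. The only probe set annotated to H2bc22 alone, again of the _x_at kind that can match related genes, read 180.7, 226.6 and 272.6 in differentiated cells, against 88.8, 126.3 and 143.8 in proliferating cells. Its change of 0.85 (SE 0.25) passed at an adjusted p of 0.045, which became 0.055 to 0.19 when any single array except proliferating replicate 3 was left out. It was also lost after quantile normalization (0.069), with the 75th percentiles set equal (0.060) and with a pseudocount at the 40th percentile (0.056), which left 2 histone genes called higher instead of 3. The other 6 H2B probe sets, including those of H2bc18 and of H2bc21, overlapped between the groups, with changes between -0.47 and 0.65.

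H2A and H2B genes often lie head to head with a common promoter region between them, so their places were read from RefSeq. Of the 10 H2A genes on the probe set that fell, 7 had an H2B start within 300 bases on the opposite strand, with 167 to 248 bases between the starts. For H2ac4, H2ac6 and H2ac24 no such start was found. The promoters searched covered 10 of the 12 H2B cluster genes that the probe sets name, so a facing gene may have been missed. Of those 7 facing H2B genes, 6 (H2bc7, H2bc8, H2bc11, H2bc13, H2bc22 and H2bc23) were listed on an H2B probe set called higher. The other, H2bc12, was listed on no histone probe set and could not be called. Among the 12 H2B cluster genes that the probe sets name, 10 were listed on one called higher. Because these probe sets are shared, this does not show that the H2A and H2B transcripts of any one pair changed in opposite directions. H2bc8 and H2ac8, with 179 bases between their starts, are an example of a pair, and the 170 bases before the start of H2bc8 (chr13:23571230-23571399, GRCm38.p6, plus strand) therefore lie between the pair. Capitals mark, on either strand, the CCAAT box, the octamer ATTTGCAT, which is the binding sequence of octamer factors such as Pou2f1, and the TATA box TATAAA, and no match shares a base with another.
H2bc8: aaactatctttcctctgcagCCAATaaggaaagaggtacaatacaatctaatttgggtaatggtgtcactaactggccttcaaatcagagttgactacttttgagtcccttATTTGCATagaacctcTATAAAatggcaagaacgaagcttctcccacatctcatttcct
The octamer was found before 4 of 12 H2A cluster genes, 4 of 10 H2B, none of 10 H3 and none of 11 H4 cluster genes, and in 1.15% of all promoters. TATAAA was found before 4 of 12 H2A cluster genes and 1 of 10 H2B cluster genes, and in 8.4% of all promoters. H2bc8 is thus not typical of the H2B cluster genes in this.

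The H3 cluster genes had 2 probe sets called higher and none lower among 8, where 6.14% of all probe sets were called higher and 6.43% lower. Both were listed for the same 8 genes (H3c2, H3c3, H3c4, H3c6, H3c7, H3c13, H3c14 and H3c15), which encode the canonical core histone H3. They are therefore not independent measures. The first read 407.8, 465.8 and 418.6 in differentiated cells, against 142.0, 124.4 and 170.8 in proliferating cells, so the groups were clearly separated (1.48, SE 0.18, adjusted p = 8.1e-05 in limma). The second read 186.3, 192.8 and 149.1 in differentiated cells, against 24.5, 45.1 and 45.7 in proliferating cells, where no array was above its bacterial control. With the proliferating arrays set to that control, it was at least 2.33-fold higher in differentiated cells on the signal + 15 scale (fitted adjusted p = 0.0036). A probe set listed for 12 H3 genes, with the RefSeq transcript of H3c14 as its representative sequence, missed the threshold, at 191.7, 207.2 and 143.8 in differentiated cells against 110.3, 90.4 and 59.1 in proliferating cells (0.97, SE 0.30, adjusted p = 0.055). The remaining 5, among them the own probe sets of H3c4, H3c7 and H3c11, were dim and overlapped between the groups.

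Histone H4, which forms the tetramer with H3, could hardly be read. All 5 of its probe sets were listed for the same 13 entries (12 H4c genes and H4f16), none was called, and 3 of them were at or under the bacterial control on all 6 arrays. The brightest read 102.1, 22.4 and 44.2 in differentiated cells, against 94.3, 67.4 and 76.1 in proliferating cells. The groups overlapped, with a change of -0.55 (SE 0.49, adjusted p = 0.59). Its representative sequence is moreover the RefSeq transcript of H3c1, an H3 gene. No level of H4 transcripts can be given from these arrays.

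Among the variants, H2ax fell most. H2ax encodes H2A.X, the H2A form that is phosphorylated at DNA breaks, and unlike most variants it also has a replication-dependent transcript. It read 328.4, 415.4 and 421.8 in differentiated cells, against 1686.5, 1901.1 and 1718.8 in proliferating cells. The groups averaged 389 ± 52.2 and 1769 ± 116 (SD, n = 3 each) and did not overlap, for a change of -2.15 (SE 0.12, adjusted p = 1.0e-07 in limma), or 4.44-fold lower. The falls of H2ax, H2az1 and the H2A probe set of 10 genes went with those of all 5 proliferation markers, and the part of fewer cycling cells in them was not tested.

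H2az1, which encodes H2A.Z, a variant found at promoters and regulatory elements, fell on all 4 of its probe sets. The brightest of its own read 2488.2, 2741.1 and 2847.9 in differentiated cells, against 7926.2, 8272.8 and 8469.7 in proliferating cells (-1.61, SE 0.09, adjusted p = 1.5e-07). The spread within each group was small next to the 3.05-fold difference. The other 3 probe sets, 2 of them shared with the predicted gene Gm8203, changed by -1.37, -1.30 and -1.21. The promoter of H2az1 (chr3:137864317-137864486, GRCm38.p6, plus strand) is shown beside those of the cluster genes as that of a variant that fell, with its 2 CCAAT boxes, one on each strand, in capitals and no match to the other 3 motifs.
H2az1: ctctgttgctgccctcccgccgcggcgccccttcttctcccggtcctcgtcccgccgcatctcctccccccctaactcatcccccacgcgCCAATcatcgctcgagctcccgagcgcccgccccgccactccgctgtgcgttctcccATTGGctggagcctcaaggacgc
H2az2, the gene of a second and nearly identical H2A.Z protein, was not called on either of its probe sets. It read 2511.5, 2698.5 and 2856.0 in differentiated cells, against 2905.1, 3713.4 and 2878.8 in proliferating cells on the brighter, and 163.2, 187.0 and 151.4 against 130.6, 89.1 and 103.4 on the other. On both the groups were just apart, lower in differentiated cells on the first and higher on the second (-0.23, SE 0.11, adjusted p = 0.27, and 0.58, SE 0.26, adjusted p = 0.21). The changes of H2az1 and H2az2 were not tested against each other.

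MacroH2A, which carries a large extra domain and is known from inactive chromatin, gave no call on 5 probe sets. Macroh2a1 read 785.0, 777.8 and 989.7 in differentiated cells, against 844.0, 1071.5 and 1055.6 in proliferating cells, with overlap (-0.22, SE 0.13, adjusted p = 0.38). Macroh2a2 read 124.4, 151.7 and 181.6 in differentiated cells, against 146.5, 102.3 and 105.8 in proliferating cells (0.33, SE 0.27, adjusted p = 0.55). Macroh2a3, a transcribed pseudogene in RefSeq, was dim on both of its own probe sets.

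**Figure D3:**
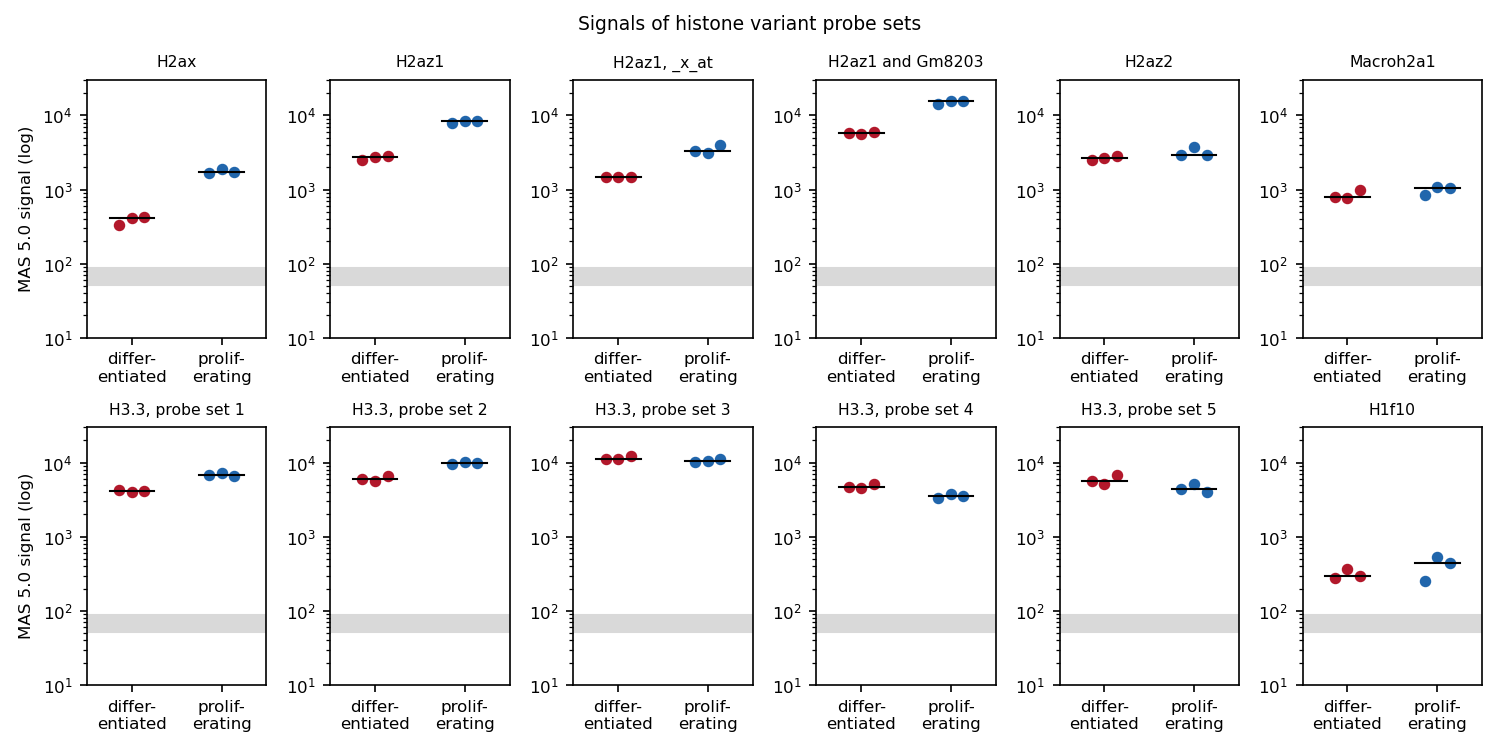
MAS 5.0 signal (y axis, log scale) of 12 probe sets of histone variant genes in differentiated (red) and proliferating (blue) cells, with 1 point per array, 3 arrays per group, a line at the group median, and the range of the brightest bacterial controls as a grey band. H2ax and the H2az1 probe sets were lower in differentiated cells, H2az2, Macroh2a1 and H1f10 were not called, and the 5 shared H3.3 probe sets did not move the same way.

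The replacement histone H3.3, which is encoded by H3f3a and H3f3b and put into chromatin outside replication, gave probe sets that disagreed. Its 5 bright probe sets are all listed for the same 6 entries (H3f3a, H3f3b, H3f3c, Gm6749, Gm10257 and Gm12657), so none can be given to 1 gene from the annotation. The first, with the RefSeq transcript of H3f3b as its representative sequence, read 4318.3, 4071.1 and 4184.7 in differentiated cells, against 6786.8, 7261.6 and 6674.2 in proliferating cells (-0.72, SE 0.09, adjusted p = 1.3e-04 in limma). The second read 5992.2, 5595.1 and 6513.3 in differentiated cells, against 9643.1, 10281.3 and 10007.9 in proliferating cells (-0.73, SE 0.10, adjusted p = 2.6e-04, and 0.052 in eBayes without trend). On both, every differentiated array was below every proliferating array. The third read 11220.2, 11152.3 and 12289.0 in differentiated cells, against 10353.5, 10510.1 and 11274.5 in proliferating cells, with overlap (0.11, SE 0.10, adjusted p = 0.62). The fourth was called higher, at 4720.4, 4549.6 and 5081.0 in differentiated cells against 3367.1, 3782.2 and 3542.1 in proliferating cells (0.42, SE 0.09, adjusted p = 0.0085, and 0.20 without trend), a change under 1.5-fold. The fifth leaned the same way without passing, at 5579.9, 5220.6 and 6812.8 in differentiated cells against 4399.8, 5083.4 and 4064.3 in proliferating cells (0.37, SE 0.12, adjusted p = 0.067). No single direction for H3.3 transcripts follows from these probe sets, and the own probe sets of H3f3a and H3f3b were too dim to separate the genes.

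Linker histone variants were not called. H1f10, which encodes H1.10, read 279.8, 372.7 and 292.5 in differentiated cells, against 253.0, 539.2 and 446.7 in proliferating cells (-0.32, SE 0.23, adjusted p = 0.49). H1f6 and H1f7, known from testis, and H1f8, known from the oocyte, were near the bacterial control: their 4 probe sets changed by -0.14 to 0.79, all with overlap between the groups.

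Features that the choice by name did not use also differed between the classes. In RefSeq the genes of the H1, H2A, H3 and H4 clusters all span less than 1000 bases, while 5 of 12 H2B cluster genes (H2bc4, H2bc6, H2bc21, H2bc22 and H2bc23) span more, up to 37455 bases for H2bc6, as do all 6 H2A variant genes and all 3 H3.3 genes. Genes on called probe sets were of both kinds: the 2 brighter H2B probe sets called higher list H2bc4 and H2bc6 as well as H2bc8, which spans 464 bases, and H1f2 spans 725 bases and H2ac19 596 bases. H2bc21, at 2667 bases, was not called on either of its own probe sets. Of the 63 genes 44 lie on chromosome 13 and 9 on chromosome 3. Whether the length of a gene bears on its change was not tested.

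Genes that make histone mRNA were taken from a list of 22 that act in the transcription or 3′ end formation of cluster genes. The list was drawn up with earlier results of these data known, so its shares are no independent test. Of the 21 with a probe set of their own, none was called higher, 7 were called lower and 14 were not called. Of all genes, 8.67% were called higher and 9.05% lower. Their median change was -0.27, against 0.06 over all genes, and at an unadjusted p under 0.05 in limma 1 was higher and 8 were lower. Another fit kept only probe sets above the bacterial control on every array of a group. In it 7 of 20 listed genes were lower and 0 higher, against 3397 lower and 3428 higher of all 21896 probe sets. Ccne2 entered that fit through the proliferating arrays only. The fit also sets listed genes against single probe sets, so it gives no separate support for a fall. Slbp, which binds the stem-loop, read 326.2, 430.8 and 438.3 in differentiated cells, against 983.7, 1034.2 and 1131.9 in proliferating cells (-1.37, SE 0.13, adjusted p = 1.4e-05 in limma), or 2.59-fold lower and without overlap. Npat, the coactivator of histone loci, read 199.4, 166.9 and 194.7 in differentiated cells, against 154.4, 154.2 and 217.1 in proliferating cells and was not called (0.10, SE 0.22, adjusted p = 0.86). The cyclins E1 and E2, which with Cdk2 activate Npat, were lower (Ccne1 -1.04, SE 0.21, adjusted p = 0.0043, and Ccne2 -1.65, SE 0.39, adjusted p = 0.013), and so was the S phase transcription factor E2f1 (-1.16, SE 0.15, adjusted p = 1.9e-04). Srrt, which couples the mRNA cap to 3′ processing, changed by -0.90 (SE 0.13, adjusted p = 3.7e-04), Eri1, an exonuclease that trims the stem-loop, by -0.71 (SE 0.17, adjusted p = 0.014), and the cleavage factor subunit Cstf2 by -0.69 (SE 0.14, adjusted p = 0.0053). Of these, Ccne2 was not called without proliferating replicate 1 or 3 (adjusted p = 0.073 and 0.091), nor Eri1 without proliferating replicate 1 or 3 or differentiated replicate 3 (adjusted p = 0.074, 0.062 and 0.050).

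Histone chaperones and exchange factors carry histones and place them in chromatin. This list too was drawn up with earlier results of these data known, so its shares are no independent test. Of 36 listed genes 32 had a probe set of their own. None of the 32 was called higher, 15 were called lower and 17 were not called, again against 8.67% and 9.05% of all genes. Their median was -0.37, against 0.06 over all genes, and at an unadjusted p under 0.05 in limma 0 were higher and 18 were lower. In the fit of only probe sets above the bacterial control on every array of a group, 16 of 32 were lower and 0 higher. Of all 21896 such probe sets, 3397 were lower and 3428 higher. Chaf1b and Srcap entered that fit through the proliferating arrays only, so here too it gives no separate support for a fall. The largest fall in the list was that of Cenpa, which is not a chaperone but the centromeric H3 variant, outside the names used here. It is counted among the 15. Cenpa read 129.7, 166.5 and 202.8 in differentiated cells against 1831.6, 2043.8 and 1665.2 in proliferating cells (-3.38, SE 0.15, adjusted p = 1.7e-08). Asf1b, a chaperone that brings H3 and H4 to the replication fork, read 107.6, 113.1 and 87.2 in differentiated cells, against 988.4, 1188.5 and 933.2 in proliferating cells (-3.16, SE 0.16, adjusted p = 3.9e-08). The groups were far apart for both. Mcm2, the helicase subunit that holds parental H3 and H4, changed by -2.41 (SE 0.11), Chaf1b of the replication-coupled assembly factor CAF-1 by -2.32 (SE 0.29), Nasp, which stores H3 and H4 in the cell, by -2.23 (SE 0.13) and Dek by -1.32 (SE 0.11), with adjusted p from 1.8e-08 to 1.1e-04. Smaller falls were called for Nap1l1, Npm1, Hat1, Set, Supt16, Anp32e, Ncl, Asf1a and Rbbp7. Hira, which places H3.3 outside replication, read 205.8, 126.7 and 112.9 in differentiated cells, against 96.0, 122.5 and 165.4 in proliferating cells and was not called (0.18, SE 0.30, adjusted p = 0.81), nor were Ubn1, Ubn2, Cabin1, Daxx and Atrx, which act with it or in a parallel H3.3 pathway. These falls moved with those of the proliferation markers, and the part of cell cycle exit in them was not tested.

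**Figure D4:**
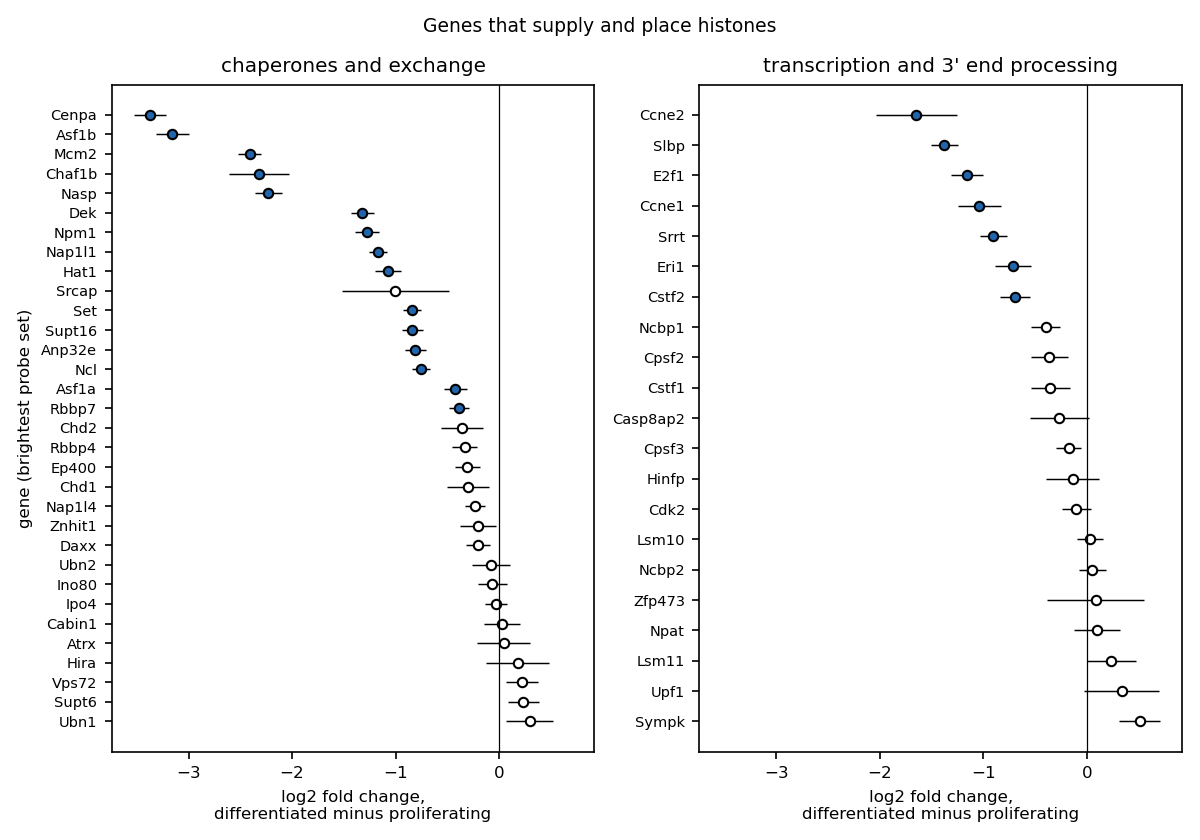
Change of each listed gene by its brightest probe set (x axis, log2 fold change of signal + 15, differentiated minus proliferating, with bars of 1 SE) for 32 histone chaperone and exchange genes (left) and 21 genes of histone transcription and 3′ end processing (right). Filled symbols passed an adjusted p under 0.05 and open symbols did not, and all filled symbols, 15 on the left and 7 on the right, lie below 0. The genes on the left include Cenpa, itself a histone.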

How the data were processed

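RNA of 3 differentiated and 3 proliferating C2C12 samples was hybridised to 1 Affymetrix mouse array each. The authors deposited MAS 5.0 signals, which are intensity values on a linear scale, scaled per array to a trimmed mean of about 250. The GCRMA step named in the study's methods needs probe-level data and was left out. The table holds 45101 probe sets, and the 64 Affymetrix controls among them were not tested. Signals were fitted as log2(signal + 15), without further normalization, by limma 3.58.1 in R 4.3.3 (lmFit, eBayes with trend), 2-sided, with Benjamini-Hochberg adjustment over 45037 probe sets, and all adjusted p-values are from limma. The number of arrays limits the precision. Genes were named by the platform annotation, in which 34945 probe sets have 1 symbol, 932 have several and 9160 have none.

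The members and gene lists were chosen with earlier results of these data known. A gene counted by its brightest own probe set. Named with values were each variant gene, up to 4 called probe sets per cluster class and the brightest of each class, second probe sets whose call differed, and per list up to 6 called genes by size of change, with Slbp, Npat, Asf1b, Hira and Cenpa whether called or not. Cstf2, the seventh called gene of its list, the other called chaperone genes and further probe sets of named genes were added after their values were seen. For a probe set at or under the brightest of 27 bacterial controls on every array of a group, the fold is a bound against that control. The listed genes Pou2f1, Chaf1a, Hjurp, Npm3 and Ssrp1 and the marker Plin1 were not analysed here.

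Promoters are the 170 bases before the start in the RefSeq table of GRCm38.p6, which held 56 of the 63 genes. For a class, a gene counted once if any of its promoters matched, while the share of all promoters counts each promoter singly. The shares are therefore not in the same unit. The replicate numbers were not used as pairs in the main fit. Deviations of the same number correlated at 0.012, 0.00066 and 0.0094, and those of unlike numbers at -0.0147 to 0.0050. Such values over all probe sets, many of them near background, cannot show whether the samples were paired. In simulated data 50 probe sets of each size were changed, all taken from those above the median level. There limma found 8% of the 1.5-fold, 34% of the 2-fold, 60% of the 4-fold and 86% of the 8-fold changes. Far fewer probe sets were changed there than were called in the real data, so these shares are not detection rates here. The alternatives were quantile or 75th percentile normalization, other pseudocounts, a filter on dim probe sets, eBayes without trend, a regularized t-test, the replicate block, each array left out, other thresholds and other choices of probe sets. Python 3.11.15 with pandas 2.3.3, numpy 2.4.6 and matplotlib 3.10.9 handled tables and plots.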

Additional observations from a re-analysis of the deposited data

How the results depend on the processing

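Many of the 47 named probe sets and genes were named because they were called, so the 31 calls among them are not a rate of calls. Of all 54 histone probe sets, 11 were called higher and 8 lower. Among the 31, 20 were called in the same direction under all 14 alternatives. These included the brighter 2 probe sets of H1f2, both called H3 probe sets, the H2A probe set of 10 genes, H2ax and all 4 probe sets of H2az1. Without the variance trend in eBayes, 4 histone probe sets and 1 histone gene were called higher and 3 transcription and processing genes lower, against 1367 probe sets higher and 1302 lower on the whole array. The calls lost were those of H2B, H2ac19, 1 H3.3 probe set called higher and 1 called lower (-0.73), so that 7 histone probe sets were lower. With shared, _x_at and _s_at probe sets left out, 3 of 22 histone probe sets were higher and 2 lower, where 5.89% and 5.7% of all such probe sets were. At an unadjusted p under 0.05, 14 of 54 were higher and 8 lower (12.1% and 10.7% of all). Of the adjusted calls, 10 higher and 8 lower reached 1.5-fold (4.87% and 4.8% of all). With the replicate block, 10 histone probe sets were higher and 8 lower, against 2580 higher and 2707 lower of all 45037. All 18 histone calls were also made without the block, and the probe set of H2ac19 and H2ac18 was lost (adjusted p = 0.081). Leaving out each array in turn gave 8 to 10 histone probe sets higher and 8 to 8 lower, against 1950 to 2396 higher and 2304 to 2542 lower of all 45037. The same fits gave 2 to 3 histone genes higher, 5 to 7 transcription and processing genes lower and 0 to 1 higher, and 13 to 15 chaperone genes lower.

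No reversed value belonged to a called result. The own probe set of H3f3b (-0.02) turned to 0.033 with a pseudocount of 1, and it ranged from -0.49 to 0.35 when each array was left out, being above 0 without differentiated replicate 2 or 3 or proliferating replicate 1 or 3. Over the same omissions H1f6 (0.17) ranged from -0.29 to 0.44, below 0 without differentiated or proliferating replicate 3. Macroh2a3 (0.33) ranged from -0.39 to 0.92, below 0 without proliferating replicate 1, and Hira (0.18) from -0.058 to 0.36, below 0 without differentiated replicate 1. The H3.3 probe set at 0.37 passed under 4 alternatives (adjusted p 0.0060 to 0.035), and that at 0.11 after quantile normalization (0.31, adjusted p = 0.042). The cause of these shifts was not tested. Shared probe sets, the unmeasured share of polyadenylated transcripts, signals near background and 3 arrays per group limit what can be read for single cluster genes.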
